A study of Mus musculus with 6 samples.

Results

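Regions of open chromatin were examined where they lay in the exons of protein-coding genes and away from gene starts. The rule took regions by the position of their strongest summit and not by a difference between groups. Peaks of the 6 deposited lists on chromosomes 1 to 19 were merged into regions when they shared 1 bp, and a region was kept when its strongest summit lay in an exon of a protein-coding gene and more than 3 kb from the start of any annotated transcript. There were 1489 such exonic regions among 60298 regions in all (2.47%). They lay in 1340 genes, of which 1207 held 1 region, 119 held 2, 12 held 3 and 2 held 4. Of the other regions, 27619 had a summit within 3 kb of a start, 15154 lay in introns of protein-coding genes and 16036 in other sequence more than 3 kb from a start.

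Libraries were prepared with ATAC-seq (Tn5 transposase cuts and tags DNA that is open) from white blood cells of mouse peripheral blood after lysis of the red cells. The labels name 3 control libraries and 3 of high-altitude de-acclimatization (HADA), which in the study's methods is the time in normal oxygen that follows a stay in a hypobaric hypoxia chamber. The methods give male C57BL/6j mice and name no genetic change in either group. The labels and the study's methods call the cells leukocytes, whereas its results text calls them mononuclear cells, which would hold few neutrophils. No sort is named, so each library is a mixture of leukocytes, and at any region fewer cells of a type and less open DNA per cell cannot be told apart.

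In a gene, open chromatin is usually strongest at the promoter. Exons away from the start are transcribed sequence, and the DNA of an exon can at the same time hold an enhancer, an insulator site bound by CTCF or an unannotated start. The last exon of most genes carries the end of the coding sequence and the 3' UTR and is often the longest exon of the gene, whereas middle exons are mostly short and coding, so that an open region at a middle exon commonly reaches into the introns beside it. An exonic peak in genomic libraries is a measure of DNA access and not of RNA.

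Sequences at the summits are given for 3 coding regions among those that lead the comparison between groups or are tallest, and for 2 regions in leukocyte genes, Itgb2 and Tbx21, which were chosen after their values were seen. Each run covers 75 bases on either side of the strongest summit on the strand of the gene, in GRCm39, with coding bases in capitals and intron bases in lower case.

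Rasgrf2 exon 5 of 27, chr13:92167307-92167457, minus strand: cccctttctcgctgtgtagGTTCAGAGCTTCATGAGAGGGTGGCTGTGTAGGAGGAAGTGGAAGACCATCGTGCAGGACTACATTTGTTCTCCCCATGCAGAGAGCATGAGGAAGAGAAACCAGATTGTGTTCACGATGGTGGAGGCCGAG
Echdc3 exon 5 of 5, chr2:6194380-6194530, minus strand: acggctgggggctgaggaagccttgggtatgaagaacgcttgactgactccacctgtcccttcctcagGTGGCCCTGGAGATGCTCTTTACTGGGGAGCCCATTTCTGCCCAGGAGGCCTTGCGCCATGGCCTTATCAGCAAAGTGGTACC
Zfp771 exon 3 of 3, chr7:126853430-126853580, plus strand: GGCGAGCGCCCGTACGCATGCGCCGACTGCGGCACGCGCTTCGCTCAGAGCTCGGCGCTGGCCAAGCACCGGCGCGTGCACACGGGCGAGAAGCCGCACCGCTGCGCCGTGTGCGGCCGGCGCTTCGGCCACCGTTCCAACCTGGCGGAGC
Itgb2 exon 8 of 16, chr10:77386814-77386964, plus strand: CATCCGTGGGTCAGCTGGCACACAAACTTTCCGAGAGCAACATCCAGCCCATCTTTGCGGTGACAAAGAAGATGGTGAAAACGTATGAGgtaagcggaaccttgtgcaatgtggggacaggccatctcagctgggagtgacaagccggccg
Tbx21 exon 2 of 6, chr11:96992734-96992884, minus strand: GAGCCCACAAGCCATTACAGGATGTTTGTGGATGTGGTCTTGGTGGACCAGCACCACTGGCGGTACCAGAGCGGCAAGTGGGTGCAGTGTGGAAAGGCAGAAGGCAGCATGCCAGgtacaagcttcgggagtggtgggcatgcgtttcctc

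The runs differ in how much of the open core was coding. All 151 bases were coding at Zfp771, against 83 at Echdc3, where the summit lay just inside the splice junction of the last exon, 89 at Itgb2, 115 at Tbx21 and 132 at Rasgrf2. The Zfp771 run was the richest in G and C (75.5%) and held 27 CG dinucleotides.

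The first question was where in their genes the exonic regions lay. The last exon held 1071 of the 1489 (71.9%, exact binomial interval 69.6 to 74.2), middle exons held 400 (26.9%), the exon of a single-exon transcript 17 and a first exon 1. By coding status, 891 summits lay in a 3' UTR (59.8%), 467 in coding sequence (31.4%), 16 in a 5' UTR and 115 in an exon of a transcript annotated as non-coding. Nearly all 3' UTR summits were in last exons (836), and 326 of the coding summits were in middle exons, with 141 in last exons. The exon was part of the gene's canonical transcript for 988 regions (66.4%), so for the other regions the class rests on a transcript, and 41 summits lay in exons of more than 1 coding gene.

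The classes differed in exon length. Last exons with a region had a median length of 2924 bp, and 748 of their 1071 regions (69.8%) lay wholly inside the exon. Middle exons had a median length of 186 bp, with the summit a median of 45 bp from the nearest exon end, and 61 of 400 regions (15.3%) lay wholly inside. In last exons the summit was a median of 1170 bp from the annotated transcript end, with 242 (22.6%) within 500 bp of it, and the median summit stood 51.6% of the way along the exon.

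Per length of sequence, exons away from starts were about as open as introns or slightly more so. There were 25.8 regions per Mb of exon sequence more than 3 kb from any start (exact Poisson 95% interval 24.5 to 27.1), against 21.8 (21.5 to 22.1) in introns. Among canonical transcripts the density was 23.3 per Mb in middle exons (20.7 to 26.0) and 26.7 in last exons (24.7 to 28.8), with overlapping intervals. Coding sequence had 25.6 per Mb (23.2 to 28.2) and 3' UTRs 25.4 (23.3 to 27.5). The large share of regions in last exons and 3' UTRs stood beside the large length of that sequence, 25.5 Mb for last exons against 13.0 Mb for middle exons. The intervals cover counting error only.

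**Figure D1:**
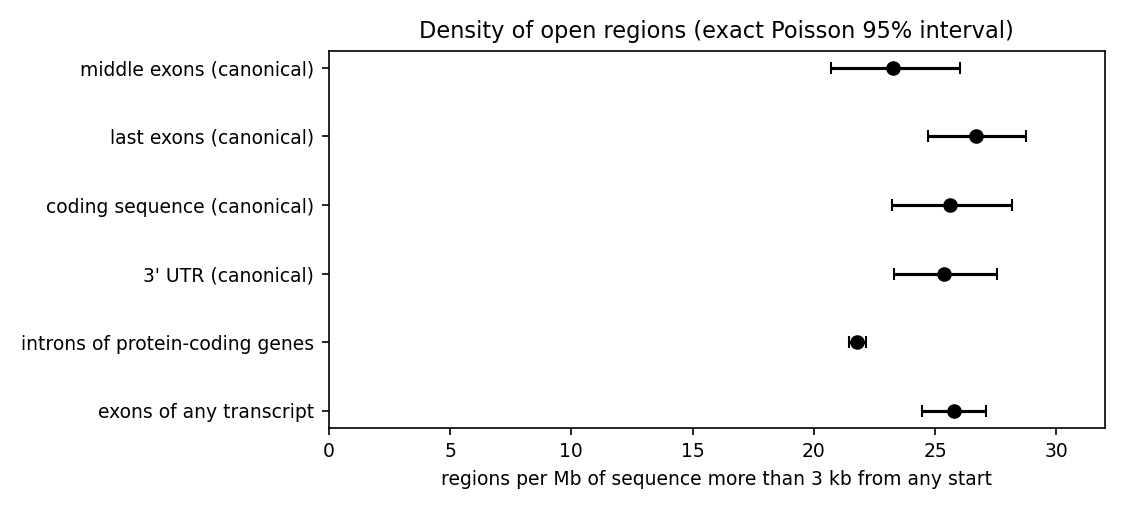
Regions per Mb of sequence more than 3 kb from any transcript start (x axis), by kind of sequence (y axis); points are densities over the merged regions of all 6 libraries and bars are exact Poisson 95% intervals. Last exons, at 26.7 per Mb, and exons of any transcript, at 25.8, lie above introns, at 21.8, while the interval of middle exons reaches down to 20.7.

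In base composition the coding regions stood apart from the other exonic regions. Within 100 bp of the summit the median G and C content was 54.7% in coding sequence and 49.3% in 3' UTRs, beside 47.8% in introns and 54.7% within 3 kb of starts. Exonic regions were a median of 642 bp wide, beside 696 bp in introns and 901 bp near starts. The 50 bases at the summit occurred once in the genome for 1390 of the 1489 (93.4%), beside 87.0% of intronic regions, and the 99 others cannot be placed with certainty from these bases.

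Short consensus sequences were looked for on either strand, up to 100 bp from each summit. GGGCGG, the core of SP and KLF sites, was found in 7.39% of exonic regions, in 11.6% of those in coding sequence and 6.06% of those in 3' UTRs, beside 4.67% of intronic regions, 26.3% of regions near starts and 14.8% of all regions. The RUNX core TGTGGTT was found in 8.26%, beside 9.87% in introns and 7.20% of all regions. The PU.1 sequence GAGGAAGT was found in 4.84% (4.24% of all regions), the AP-1 sequence TGANTCA in 5.71% (5.58%), the EBF sequence CCCNNGGGA in 3.56% (4.57%) and TGACNNNGC, which NRF2 sites hold, in 8.80% (8.37%). AP-1 and NRF2 letters can overlap in 1 stretch of sequence. The C/EBP sequence TTGCGCAA was found in 0 exonic regions and in 0.0647% of all regions. A match to the CTCF consensus was found in 39 exonic regions (2.62%), beside 2.06% of intronic and 1.73% of all regions.

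The second question was whether the exonic regions differed between HADA and control mice. The number with a peak was 792, 695 and 595 in controls and 982, 957 and 984 under HADA. Every HADA library exceeded every control library, and the controls spread more among themselves. The mean was 974 ± 15.04 in HADA and 694 ± 98.5 in control (SD, n = 3 each, two-sided exact permutation p = 0.1; with 3 against 3 no smaller p is possible). HADA libraries also had more regions in all, 42744 ± 901 against 36671 ± 3960, and exonic regions were 2.32%, 2.28% and 2.25% of a HADA library's regions and 2.02%, 1.80% and 1.85% of a control library's. This share too did not overlap between groups (2.28% ± 0.0332 against 1.89% ± 0.113, SD, n = 3 each, exact permutation p = 0.1). Equal numbers of the strongest peaks per library lowered the difference in number from 280 to 88.7 regions, with the groups still apart.

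Regions in both last and middle exons were more numerous in HADA libraries. Last-exon regions numbered 564, 507 and 427 in control and 714, 691 and 713 under HADA, 41.4% more in HADA, and middle-exon regions numbered 220, 176 and 159 against 256, 256 and 261, 39.3% more. Whether these excesses differ was not tested. Neither set overlapped between groups (exact permutation p = 0.1, n = 3 each). Intronic regions were 27.6% more numerous in HADA, regions near starts 16.7%, and other distal regions 5.26%, of which the last overlapped between groups (exact permutation p = 0.9, n = 3 each). Whether the exonic excess differs from the intronic one was not tested.

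**Figure D2:**
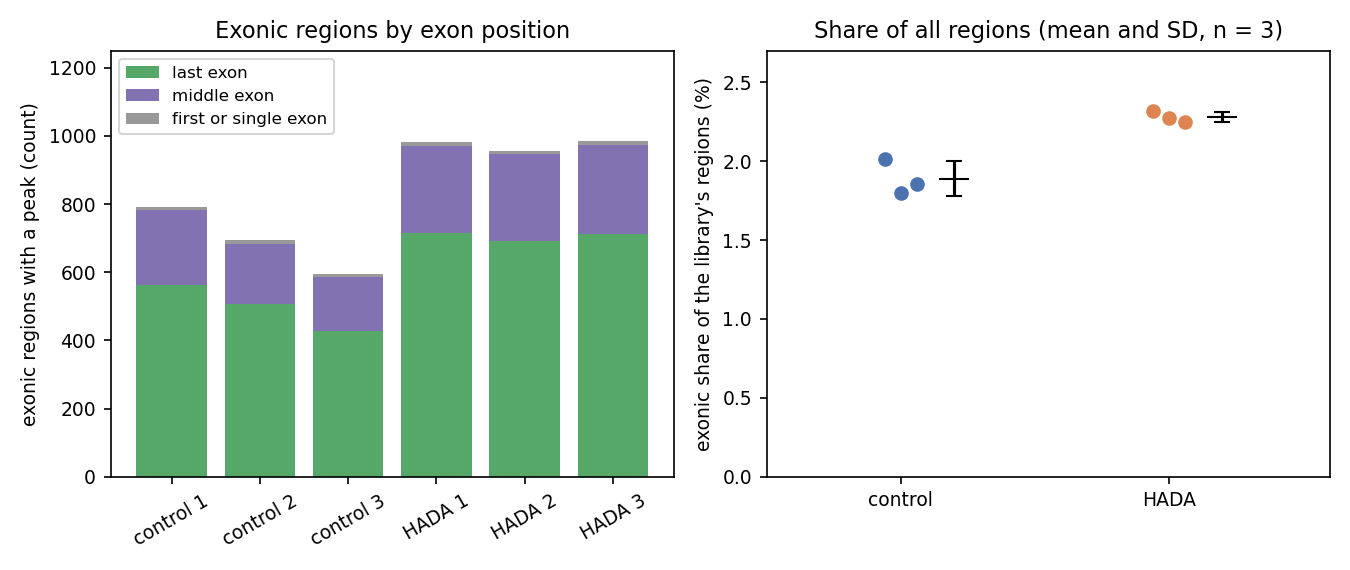
Left, the number of exonic regions with a peak in each library (y axis), stacked by exon position; right, exonic regions as a percentage of all regions of the library, a point per library with the mean and SD of 3 libraries beside it. The HADA libraries, at 957 to 984 regions and 2.25 to 2.32%, lie above the control libraries, at 595 to 792 and 1.80 to 2.02%.

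The background pileup of a library, which stands for its relative depth, was 1.69, 2.05 and 1.83 in control and 2.34, 1.99 and 2.27 under HADA, so depth overlapped between groups. Summed marker heights did not overlap between groups for B cell, T cell, natural killer, neutrophil, and erythroid and platelet genes, and overlapped for monocyte and pan-leukocyte genes. The summed promoter height of 8 B cell genes was 220, 136 and 28.4 in control and 499 to 569 in HADA libraries, with only 4 of the 8 genes open in control 3; that of 8 T cell genes was 226 to 305 against 358 to 415; that of 8 neutrophil genes was 200 to 470 against 98.1 to 163; that of 6 monocyte genes was 81.8 to 121 against 84.9 to 103; and that of 6 natural killer genes was 11.5 to 47.4 against 50.4 to 67.3. All 3 pan-leukocyte genes had a peak in every library, with sums of 301 to 488 against 389 to 476, and the summed height of the 6 erythroid and platelet genes was 14.2, 20.5 and 9.29 in controls against 47.0, 39.2 and 38.3 under HADA, although Hba-a1 and Gp9 had no peak in any library. The part of cell mixture in the differences below was not tested.

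Most exonic regions were small and were found in some libraries only. A peak was present in 1 library for 359 regions (24.1%, beside 18.8% of all regions) and in all 6 for 334 (22.4%, beside 38.2% of all regions and 24.5% of intronic regions). Of the 1130 exonic regions with a peak in more than 1 library, 788 (69.7%) had all summits within 200 bp of the strongest. The median height, the summit pileup divided by the library's background pileup, was 12.4, 10.2 and 13.1 in control and 12.4, 12.6 and 11.4 under HADA, which overlapped. The mean difference from the median height of intronic regions was -0.00095 on the log2 scale, whereas regions near starts stood at 24.3 to 34.2. Just outside the 3 kb limit, exonic regions 2 to 3 kb from a start had peaks in all 6 libraries in 26.9% of 305 cases, beside 27.4% of the 226 exonic regions at 3 to 4 kb.

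There were 151 exonic regions with a peak in 3 of 3 HADA and 0 of 3 control libraries (10.1%, exact binomial interval 8.65 to 11.8), where the share over all regions was 7.15% and over intronic regions 9.17%. The reverse, a peak in 3 of 3 control and 0 of 3 HADA libraries, held for 27 exonic regions (1.81%, interval 1.20 to 2.63), where the share over all regions was 1.86%. HADA-only regions were 110 of the last-exon regions (10.3%) and 41 of the middle-exon regions (10.3%). The control-only regions lay in last exons in 24 cases (2.24%) and in middle exons in 3 (0.75%), a difference that was not tested. With equal numbers of the strongest peaks per library the counts were 91 HADA-only and 48 control-only, where 5.82% and 4.64% of all regions were, beside 8.42% and 4.44% of exonic ones. Leaving out control 1 gave 242 and 49, where the shares of all regions were 11.6% and 2.79%. Neither count could fall there, as fewer libraries had to meet the rule.

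**Figure D3:**
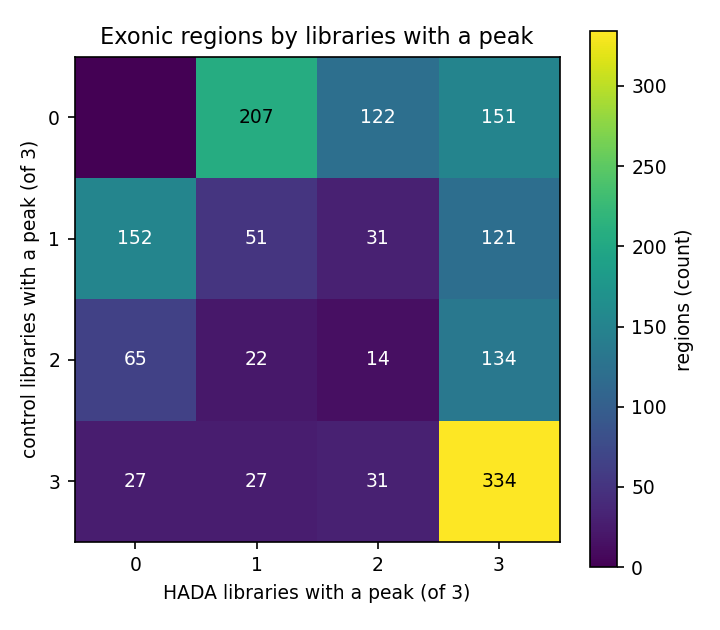
Number of exonic regions (colour and printed count) by the number of control libraries (y axis, 0 to 3) and HADA libraries (x axis, 0 to 3) with a peak. The corner with 3 HADA and 0 control libraries holds 151 regions and the opposite corner 27, beside 334 with a peak in all 6.

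Most HADA-only regions were low. Their median summit pileup was 22, 19 and 20 in the HADA libraries, beside 63, 51 and 50.5 for exonic regions found in all 6 libraries, so that absence from a control list can be a peak just under the calling limit. The tallest 4 with single-copy summits were exceptions. In the last exon of Arl6ip1, which shapes membranes of the endoplasmic reticulum, the height was 68.0, 81.4 and 70.4 in HADA (73.2 ± 7.15, SD, n = 3) with no control peak (chr7:117719063-117719697, 3' UTR). An exon of a retained-intron transcript of Stk11ip, whose product binds the kinase LKB1, had heights of 65.8, 61.8 and 55.9 (chr1:75501231-75501756). Slc11a2, the iron importer DMT1, had in its last exon 44.9, 39.7 and 34.3 (chr15:100286162-100286621, 3' UTR), and its summit window held an alternating run of CA or TG of 50 bases. Gsto2, a glutathione transferase, had in the last exon of a transcript 43.6, 39.7 and 32.5 (chr19:47872914-47873530, 3' UTR).

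These tall HADA-only peaks stood on raised surroundings. The local background that the peak caller set was 21.0 to 24.4 at Arl6ip1, 21.6 to 26.6 at Stk11ip and 24.1 to 27.4 at Gsto2, against a genome-wide background of 1.99 to 2.34 in the same libraries and a median local background of 2.31 to 2.58 over all HADA-only exonic regions. At Slc11a2 it was 3.88 to 4.79. Whether a difference in the DNA itself, such as copy number, plays a part was not tested.

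The tallest control-only regions with single-copy summits were lower than these. The 3' UTR of Htd2, an enzyme of mitochondrial fatty acid synthesis, held a region with heights of 30.2, 19.96 and 21.9 in control (chr14:14375861-14376354), in an exon that Rpp14 shares. Asap1, an Arf GTPase-activating protein, had in its last exon 18.96, 15.1 and 26.2 (chr15:63960196-63961776). Milr1, an inhibitory receptor of mast cells and other myeloid cells, had in the last exon of a transcript 19.6, 13.6 and 26.2 (chr11:106649781-106650407), and that of a transcript of Pdgfrb, a receptor for platelet-derived growth factor, had 16.0, 14.1 and 14.2 (chr18:61207534-61207989). None of the 4 had a peak in a HADA library. Local background in control libraries was 9.28 to 10.6 at Milr1, 6.72 to 7.89 at Htd2, 6.55 to 7.54 at Asap1 and 1.83 to 2.62 at Pdgfrb.

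A CTCF match was present up to 100 bp from the summit in 8 of the 151 HADA-only exonic regions (5.30%), in 3 of the 334 found in all 6 libraries (0.898%) and in 0 of the 27 control-only ones. Over all regions the shares were 2.30%, 0.782% and 0.268%. CTCF was 1 of 8 sequences counted this way. NRF2 letters were in 4.64%, 13.2% and 11.1% of these exonic sets, in the same order. Over all regions the NRF2 shares were 7.997%, 9.07% and 9.38%. The AP-1 sequence was in 6.62%, 5.99% and 22.2%, beside 5.63%, 4.66% and 10.6% over all regions. Differences between the sets were not tested for any sequence. All are counts of a sequence, not of bound protein, and they were looked at after the regions were known. The CTCF sites are shown for the 3 regions with a coding summit and for 2 with a summit in a 3' UTR. The match itself was coding at Pdia4 and Smim45, in the 3' UTR at Bcr and Arhgef28, and in the intron beside exon 2 at Tbx21, where 0 of its 13 bases were exonic. Sites are printed with the match in capitals and 6 bases on either side, on the strand of the match in GRCm39.

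Tbx21 intron beside exon 2 of 6, chr11:96992705-96992729, plus strand: agtaatCCACCAGGGGGCGccctgt
Pdia4 exon 8 of 10, chr6:47776156-47776180, plus strand: atacaaCCACCAGGGGGCGtttgct
Smim45 exon 2 of 2, chr15:82143903-82143927, minus strand: cacggtCCACCAGGGGGCGctgcat
Bcr exon 23 of 23, chr10:75018394-75018418, plus strand: ttgttgCCACCAGAGGGCAccccaa
Arhgef28 exon 31 of 31, chr13:98075574-98075598, minus strand: gcttcaCCACCAGATGGCGcccgtg

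Tbx21 encodes T-bet, the transcription factor of type 1 T helper and natural killer cells, and Pdia4 a protein disulfide isomerase. Heights in HADA libraries were 14.5, 7.53 and 10.6 at Tbx21, 8.12, 11.6 and 5.72 at Pdia4, 5.98, 6.03 and 4.84 at Smim45, 8.97, 8.54 and 7.48 at Bcr and 9.40, 10.6 and 12.3 at Arhgef28. All were modest, and no control library had a peak at any of the 5. The other 3 matches were in the last exons of Lrch1, Zfp426 and Zkscan1, and the 50 summit bases of the Zkscan1 region occurred 23 times in the genome.

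Heights could be compared between groups where every library had a peak. Of the 1489 exonic regions 334 met this and 1155 were not tested. Log2 summit pileups, centred on each library's median region, were fitted with limma over all 23013 regions with 6 peaks, with Benjamini-Hochberg adjustment over all of them. At an adjusted p under 0.05, 74 exonic regions were higher in HADA (22.2%), where 17.5% of all regions tested were, and 90 were lower (26.9%), where 23.4% were. Both shares are near these backgrounds in this fit, and those under other settings follow below. Intronic regions were called lower in 34.3% and other distal regions in 50.1%. The called log2 differences ran from 0.46 to 1.77 with a median of 0.94 among higher regions and from -2.61 to -0.50 with a median of -1.29 among lower ones. The median over the 334 was -0.04 and over all regions tested -0.04.

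The balance of directions depended on the scaling. With pileups divided by the library background in place of centring, the median of all regions moved from -0.04 to 0.35, and 128 exonic regions were higher and 58 lower, where 31.8% and 17.4% of all regions were. Higher calls were then 68.8% of those made, beside 45.1% with centring. With the rank of the deposited fold, which divides by local background, 38 were higher and 18 lower (11.4% and 5.39%), where 6.48% and 4.91% of all regions were. The number of higher calls also fell to 28 without HADA 2, 42 without HADA 3 and 43 without HADA 1, and that of lower calls to 49 without HADA 2 and 59 without HADA 3. Without HADA 2, 3 and 1 the higher calls were 8.07%, 12.2% and 12.6% of exonic regions tested. The shares of all regions fell too, to 3.65%, 5.87% and 7.95%. Lower calls were 14.1% and 17.1% of exonic regions without HADA 2 and 3, where 10.2% and 14.3% of all regions were. Without control 3 the balance turned, to 108 higher and 86 lower (25% and 19.9%), where 18.2% and 20.98% of all regions were. With equal numbers of the strongest peaks it was 65 higher and 58 lower (24.3% and 21.7%), where 18.9% and 19.5% were. The log2 differences below are from the centred fit, relative to the median region.

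By position, 24 of 86 middle-exon regions were higher (27.9%) and 23 lower (26.7%), and 49 of 242 last-exon regions were higher (20.2%) and 67 lower (27.7%). In coding sequence 30 of 111 were higher and 28 lower, and in 3' UTRs 37 of 190 were higher and 54 lower, where over all regions tested 17.5% were higher and 23.4% lower. With pileups over library background the balance was 50 higher and 23 lower in coding sequence, and it turned in 3' UTRs, to 66 higher and 32 lower, as it did in last exons, to 87 and 40. Under that scaling 31.8% of all regions were higher and 17.4% lower. The median log2 difference was 0.15 in coding sequence and -0.07 in 3' UTRs, a gap that was not tested.

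**Figure D4:**
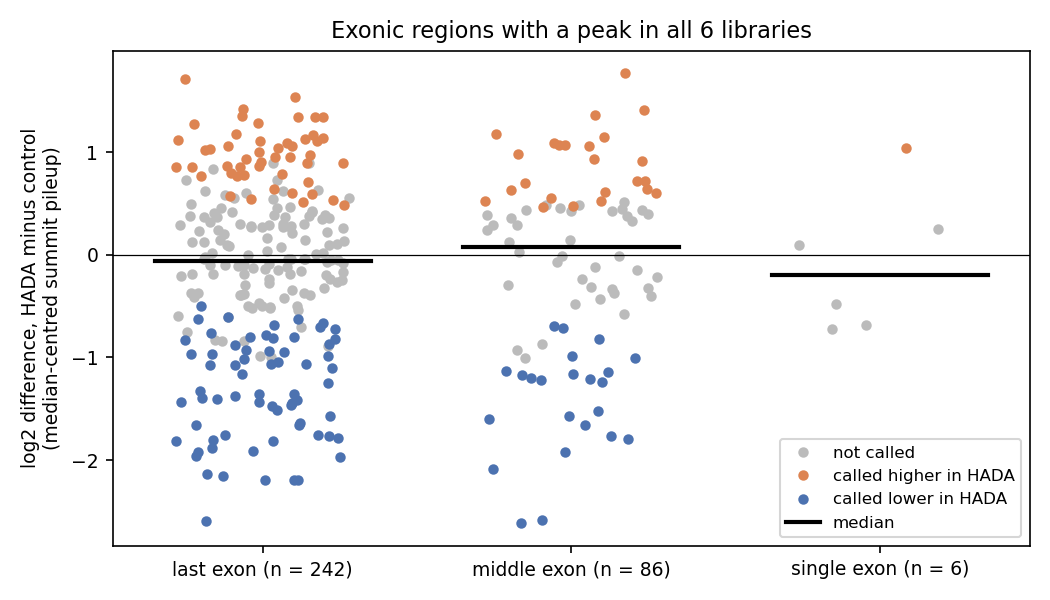
Log2 difference between HADA and control in median-centred summit pileup (y axis) for the 334 exonic regions with a peak in all 6 libraries, by exon position (x axis; horizontal jitter only separates points). Orange and blue points passed limma's adjusted p of 0.05, grey ones did not, and black bars are medians, at -0.06 for last and 0.08 for middle exons.

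The 6 single-copy regions called higher with the smallest p-values were in Mta3, Rasgrf2, Echdc3, Zbtb7b, Rnf213 and Fstl4. Mean heights over library background were 2.67 to 3.46 times as high in HADA libraries. The log2 differences given are centred and smaller, at Mta3 1.42 beside 1.82 with the background scaling. The last exon of a transcript of Mta3, a subunit of the NuRD chromatin remodelling complex, had heights of 14.2, 10.2 and 8.74 in control and 34.2, 40.2 and 40.5 under HADA (chr17:84114638-84115883, 3' UTR). The groups were far apart (log2 difference 1.42 ± 0.18, SE; adjusted p = 0.00745, limma). Coding exon 5 of Rasgrf2, an exchange factor that activates Ras and Rac, had 12.4, 9.74 and 9.29 against 28.2, 30.6 and 27.3 (1.07 ± 0.15, adjusted p = 0.00820, limma), and its window holds GAGGAAGT, the PU.1 sequence, as the printed run shows. The splice-side end of the last exon of Echdc3, a mitochondrial protein of the enoyl-CoA hydratase family, had 22.5, 14.1 and 18.03 against 53.0, 54.8 and 46.6 (1.13 ± 0.16, adjusted p = 0.00865, limma).

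Zbtb7b, which encodes ThPOK, the factor that commits T cells to the CD4 lineage, had in its last exon 19.6, 17.0 and 15.3 in control and 45.7, 49.2 and 43.5 under HADA (chr3:89285557-89286542, 3' UTR; 1.03 ± 0.15, adjusted p = 0.00867, limma). Coding exon 25 of Rnf213, a very large ubiquitin ligase, had 27.8, 18.5 and 23.0 against 71.4, 61.3 and 55.9 (1.06 ± 0.16, adjusted p = 0.00873, limma). Fstl4, a follistatin-like protein, had in the last exon of a transcript marked for nonsense-mediated decay (NMD) 13.6, 10.2 and 7.65 against 29.1, 35.7 and 33.9 (chr11:53075329-53076182; 1.29 ± 0.20, adjusted p = 0.00877, limma). In none of the 6 did the groups overlap, and all 6 were also called with the background scaling. Neither is a separate check, as the 6 were picked by p-value from these heights. The background scaling also raises every log2 difference by the same amount. By fold rank 5 of the 6 were called, the exception being Echdc3 (adjusted p = 0.170, limma).

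The 6 called lower were led by a lysozyme gene. The last exon of Lyz1, which encodes a bacteria-lysing enzyme of the kind myeloid and gut cells secrete, had heights of 13.6, 14.6 and 14.2 in control and 5.56, 5.02 and 5.28 under HADA (chr10:117124085-117124695, 3' UTR; -1.82 ± 0.18, adjusted p = 0.00665, limma). Its summit bases occurred once in the genome, although Lyz1 has a close paralog. Faim2, an inhibitor of Fas-driven cell death, had in its last exon 27.8, 22.4 and 27.3 against 13.3, 10.1 and 9.24 (chr15:99395357-99396515, 3' UTR; -1.66 ± 0.18, adjusted p = 0.00671, limma). The coding summit of Fam149b, in a transcript that is not the canonical one of the gene, had 33.2, 25.3 and 48.1 against 13.7, 9.54 and 8.36 (-2.13 ± 0.29, adjusted p = 0.00812, limma).

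Stk38l, a kinase of the NDR family, had in its last exon heights of 35.6, 35.5 and 49.7 in control and 18.4, 15.6 and 11.4 under HADA (chr6:146677478-146678787, 3' UTR; -1.82 ± 0.25, adjusted p = 0.00820, limma). That of Setd7, a lysine methyltransferase, had 40.3, 37.5 and 68.3 against 17.95, 11.6 and 11.9 (chr3:51425515-51426427, 3' UTR; -2.19 ± 0.31, adjusted p = 0.00836, limma). That of a short transcript of Sdccag8, a centrosomal protein, had 30.2, 18.99 and 39.3 against 11.1, 8.04 and 9.68 (chr1:176654675-176655817, 3' UTR; -1.96 ± 0.28, adjusted p = 0.00836, limma). The groups did not overlap at any of the 6, which were likewise picked by p-value from these heights. By fold rank Lyz1, Fam149b and Stk38l were also called while Faim2, Setd7 and Sdccag8 were not. Summed marker heights, as given above, were lower in HADA for neutrophil genes. They were higher for B cell, T cell, natural killer, and erythroid and platelet genes. The part of cell mixture in the named regions of either direction was not tested.

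The tallest exonic regions did not move together. Lars2, the mitochondrial leucyl-tRNA synthetase, had by far the tallest in its last exon (chr9:123290852-123291262, 3' UTR), with heights of 618, 528 and 693 in control and 593, 479 and 373 under HADA, which overlapped. This region was 411 bp wide with all summits within 7 bp of the strongest, and whether its height is an artefact was not tested. It was called lower with centring (-0.76 ± 0.21, adjusted p = 0.0263, limma) and not with the background scaling (-0.36, adjusted p = 0.305, limma), by fold rank (adjusted p = 1, limma), with the replicate number as a block (adjusted p = 0.0564, limma), without HADA 2 or without HADA 3. Med29, a Mediator subunit, had in its last exon 233, 177 and 373 against 159, 121 and 91.9 and was lower (-1.44 ± 0.32, adjusted p = 0.0142, limma), a call lost without HADA 2. Ripor1 had in its last exon 123, 73.5 and 67.2 against 246, 263 and 219 and was higher (1.12 ± 0.18, adjusted p = 0.00900, limma), but it was not called by fold rank (adjusted p = 0.991, limma).

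The coding last exon of Zfp771, a zinc finger protein with the CG-rich run above, had 167, 118 and 172 in control and 203, 171 and 148 under HADA and was not called (-0.19 ± 0.19, adjusted p = 0.445, limma), and the sign of its difference turned by fold rank (0.13) and with the background scaling (0.20), where it was not called either. Trib1, a pseudokinase that promotes loss of C/EBP alpha, had in the last exon of a transcript 119, 111 and 195 against 147, 149 and 117 (-0.40 ± 0.27, adjusted p = 0.271, limma). Its fold rank was higher in HADA (1.499, adjusted p = 0.0236, limma), so its direction turned with the measure. Tgfbr2, a receptor for TGF-beta, had in its last exon 141, 97.9 and 250 against 97.01, 58.3 and 53.2 and was lower (-1.57 ± 0.38, adjusted p = 0.0173, limma), a call lost by fold rank (adjusted p = 0.0664, limma) and without HADA 2 or HADA 3.

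**Figure D5:**
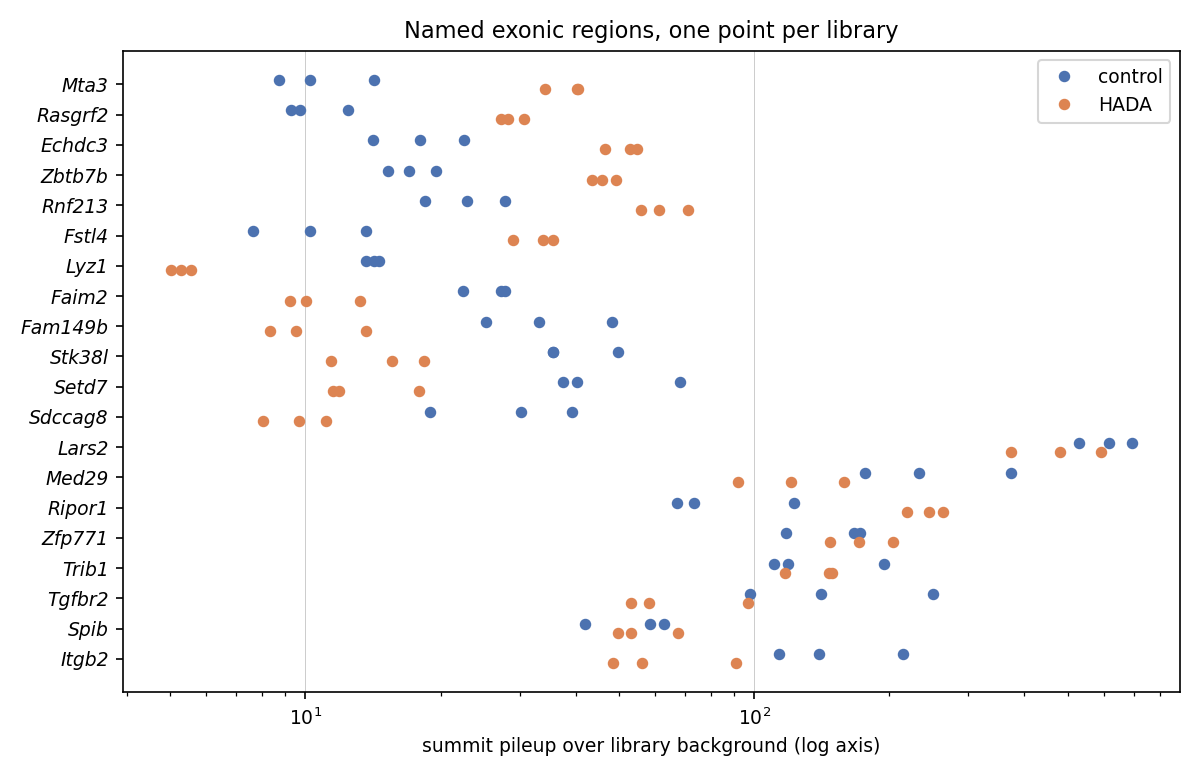
Height of each region (x axis, summit pileup over library background, log axis) for the regions named by p-value or height and for Spib and Itgb2 (y axis), with 1 point for each control library (blue) and HADA library (orange). The first 6 rows have all HADA points to the right of the control points, the next 6 the reverse, and Lars2, Zfp771, Trib1 and Spib overlap.

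Exonic regions were then listed in genes of leukocytes and of stress and chromatin pathways. Of 20 B cell genes 2 held 1 each, of 32 T and natural killer cell genes 3 held 3, of 32 neutrophil and monocyte genes 3 held 4, of 20 pan-leukocyte and signalling genes 4 held 5, of 34 NRF2, AP-1 and stress genes 3 held 3, and of 36 chromatin genes 9 held 9. Together 24 of the 174 list genes (13.8%) held 26 regions, where 6.50% of the 20604 protein-coding genes of chromosomes 1 to 19 held any. Of the 26, 4 were HADA-only (15.4%, where 7.15% of all regions were) and 0 were control-only (1.86% of all regions).

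In B cell genes, the last exon of Spib, a factor of the PU.1 family, had heights of 58.7, 41.9 and 62.8 in control and 67.5, 53.2 and 49.7 under HADA, and its pileup was not called (-0.32 ± 0.20, adjusted p = 0.225, limma). By fold rank it was lower (-1.56, adjusted p = 0.0276, limma). Bach2 had a peak in HADA 2 alone. In T and natural killer cell genes, Tbx21 was HADA-only, and Cd8a had a peak in HADA 3 alone.

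In neutrophil and monocyte genes, coding exon 8 of Itgb2, the beta chain of the leukocyte integrins, had heights of 139, 113 and 214 in control and 91.0, 56.3 and 48.4 under HADA. The groups did not overlap, and the region was lower (-1.65 ± 0.32, adjusted p = 0.0110, limma), though not by fold rank (adjusted p = 0.245, limma). A second Itgb2 region at exon 11 had peaks in control 1 and control 3, at 11.3 and 12.6, and in no other library. The coding last exon of Mmp8, the neutrophil collagenase, had 29.03, 18.99 and 39.9 in control and 15.4 in HADA 1, with no peak in HADA 2 or HADA 3. Mmp8 is itself among the neutrophil markers above.

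Among pan-leukocyte and signalling genes, the 3' UTR of Cd44, the hyaluronan receptor, had a HADA-only region with heights of 15.8, 18.6 and 16.7 (chr2:102643105-102643600), on a local background of 8.85 to 12.2. Ikzf3, the lymphoid factor Aiolos, had 1 HADA-only region with 9.83, 10.1 and 11.4, on a local background of 4.28 to 5.43, and a neighbour found in HADA 2 and HADA 3, both in retained-intron transcripts. A last exon of a retained-intron transcript of Ptprc, the pan-leukocyte phosphatase CD45, had 18.4, 24.1 and 16.3 in HADA and 9.25 in control 2 alone. The Laptm5 region, seen in 3 libraries, has summit bases with 9 copies in the genome and cannot be placed with certainty from them.

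Among stress genes, coding exon 8 of Slc7a11, the cystine importer that NRF2 is known to induce, had heights of 8.89, 7.79 and 21.9 in control and 5.98 in HADA 1 only. Fosb had a peak in control 1 and Srxn1 in control 3 and HADA 2. None had enough peaks to be tested. Among chromatin genes, coding exon 15 of Arid1b, a subunit of the BAF remodelling complex, had 11.3, 9.74 and 13.1 against 8.55, 7.03 and 7.04 and was lower (-0.98 ± 0.20, adjusted p = 0.0116, limma), and also by fold rank (adjusted p = 0.0243, limma), but not with the background scaling (-0.59, adjusted p = 0.0886, limma). Arid1a, of the same complex, had 16.0 and 7.30 in control 1 and control 2 and 23.9, 18.6 and 21.1 in HADA libraries. Stag1, a cohesin subunit, had 16.6, 11.7 and 24.6 in control and 7.27 and 5.72 in HADA 1 and HADA 3. Chd1, a chromatin remodeller, had a HADA-only region in coding exon 30 with 7.27, 10.1 and 8.80. Arid1b, Chd1, Ptprc, Ikzf3 and the second Itgb2 region were named after their values were seen.

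The genes with the most exonic regions were Ahnak, which encodes a giant scaffold protein, and Sdccag8, with 4 each, and Armc9, the first in order among 12 genes with 3. In Ahnak, 3 low regions lay in the coding last exon of 17498 bp, with heights between 5.53 and 10.1 and a peak in 2 or 3 libraries each, and 2 of them have summit bases with several copies. The other Ahnak region, in exon 8 of an NMD transcript, was HADA-only with 29.5, 33.2 and 19.8, on a local background of 13.4 to 14.3. In Sdccag8 the coding exon 3 had peaks in control 1 and control 3 at 26.7 and 34.4, upstream of the called region described above, and 2 further regions had peaks in 2 HADA libraries each. The Armc9 region tested had 11.3, 6.82 and 9.84 against 17.95, 16.1 and 15.4 and was not called with centring (0.46 ± 0.18, adjusted p = 0.0745, limma), but was called higher with the background scaling (0.85, adjusted p = 0.0124, limma) and by fold rank (adjusted p = 0.0358, limma).

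Exonic regions were also set beside the region at a start of the same gene. Such a region was found for 294 of the 334 tested, and was itself tested for 251. Of 53 of these exonic regions that were higher, the start region was higher in 15, lower in 2 and not called in 36. Of 67 that were lower, it was lower in 12, higher in 3 and not called in 52. Of 131 that were not called, it was higher in 25, lower in 11 and not called in 95. Over all tested regions near starts, 2821 of 14577 were higher and 1833 lower (12.6%). Across the 251 genes' pairs the log2 differences had a Pearson r of 0.297 and a Spearman coefficient of 0.313. Both measures come from the same 6 libraries and some genes enter more than once, so this is a description only.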

How the data were processed

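ATAC-seq was done on unsorted peripheral-blood leukocytes, with 3 libraries from control and 3 from HADA mice; the labels gave the group and the replicate number. The labels do not tie libraries to single animals, so p-values measure the spread between these libraries, which may be technical in part. The authors used Trimmomatic for trimming, Bowtie2 for alignment to GRCm39, Picard to drop duplicates and MACS2 to call peaks in each library by itself. Versions, MACS2 options and whether reads were shifted for the Tn5 cut are not given in the sources used here, so summits may lie a few bases from the cut sites. Each deposited peak list holds a fold of the summit over local background (a ratio), the −log10 of its p-value and of its q-value, and a score, for at least 99.9% of peaks the latter −log10 multiplied by 10, as a whole number. The deposited lists hold no read counts.

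MACS2 computes the fold as (pileup + 1) / (background + 1) and takes the p-value from a Poisson distribution. The summit pileup, a whole number, and the local background were solved from both, which succeeded for 100% of peaks. Lists held 32533 to 44102 peaks on chromosomes 1 to 19, and the lowest background of a library (1.69 to 2.34) stands for its depth. No peak ended beyond a chromosome of GRCm39, and 16.6% of regions had their strongest summit within 100 bp of a GENCODE M39 transcript start. Coordinates are 1-based.

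The exon class of a summit came from the canonical transcript where its exon held the summit, otherwise from the longest protein-coding and then any transcript that did. Copies of the 50 summit bases were counted in the main chromosomes and the mitochondrial genome. The deposited peaks were not filtered here against lists of regions known for artefact signal. Heights were compared with limma 3.58.1 in R 4.3.3 (lmFit, eBayes) after a test on simulated data, and single values per library with two-sided exact permutation tests (scipy 1.17.1). Named regions were the 6 called in each direction with the smallest p-values, the 4 tallest HADA-only and 4 tallest control-only, the 6 tallest in all 6 libraries (single-copy summits), the 2 tallest of each gene list in at least 3 libraries, and the 3 genes with most regions. A region of 1 gene list and the summit sequences of 2 named regions are not reported here. Members, gene lists and tests were chosen with earlier results of these data known. Alternatives covered stricter peaks, merging, exon and distance rules, copies, scaling, a replicate block, other limma options and leaving out each library.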

Additional observations from a re-analysis of the deposited data

How the results depend on the processing

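Of 138 recomputed values for the comparisons as a whole, 108 stayed within set limits and 30 moved, the limits being 1.5 times for a count, the same sign for a difference in number, the exact binomial interval for a share and the spread between libraries for a median or height. The median log2 difference, -0.04 with centring, changed sign under several settings given here, and the balance of higher and lower calls turned with the background scaling, by fold rank, without control 3 and with equal peak numbers per library. The excess of exonic regions in HADA kept its sign and the groups stayed apart under every alternative run, with a difference of 231 to 329 regions (0.345 to 0.454 percentage points of the library's regions) when a library was left out, where the smallest exact permutation p is 0.2. With the same number of strongest peaks there were 91 HADA-only, 48 control-only, 65 higher and 58 lower regions (18.9% and 19.5% of all regions were higher and lower) and the median log2 difference was 0.11. At more than 1 kb from a start there were 230 HADA-only, 42 control-only, 118 higher and 139 lower regions (10.3%, 1.89%, 22.1% and 26.1%, beside 7.15%, 1.86%, 17.5% and 23.4% of all regions), as the wider rule holds 2224 regions, 533 of them tested, and last exons held 67.1%. In canonical exons only, last exons held 68.8% and the height difference from introns was 0.053 on the log2 scale. By fold rank 38 were higher and 18 lower, with a median of 0.11, and by background scaling 128 and 58, with a median of 0.35. With all summits within 200 bp, an alternative added after seeing the data, 57 of 223 were lower (25.6%, beside 23.4% of all regions) and the median was 0.034. Leaving out a library gave 159 to 242 HADA-only regions (242 without control 1), 28 to 53 control-only (53, or 3.56%, without control 2, beside 2.80% of all regions), 28 to 108 higher (28 without HADA 2, 108 without control 3), 49 to 88 lower and a median of -0.066 to 0.16 (0.16 without control 3), a height difference from introns of -0.01 to 0.01 and a last-exon share of 71.7 to 72.04%. Shares of all regions ranged alongside from 7.52 to 11.6% HADA-only, 2.24 to 3.45% control-only, 3.65 to 19.7% higher and 10.2 to 23.4% lower. HADA-only and control-only counts could not fall when a library was left out, as fewer libraries then had to meet the rule. The causes were not tested.

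Same-numbered libraries did not deviate together: their correlations over 23013 regions were -0.10, 0.09 and -0.38, so the numbers were not taken as pairs. Between a control and a HADA library of different number the correlation ran from -0.47 (control 2, HADA 1) to 0.49 (control 3, HADA 1). The fit holds no term for such shared variation. With a replicate block 55 exonic regions were higher (16.5%, beside 11.98% of all regions) and 79 lower (23.7%, beside 22.4%), and of 20 named regions 19 kept their side of the threshold, the exception being Lars2. With trend and robust options all 20 did, with background scaling 19 and by fold rank 10. Directions turned by fold rank at Ripor1 (-0.00396), Trib1 (1.499) and Zfp771 (0.13), and with the background scaling at Zfp771 (0.20) and Spib (0.07), where neither was called. Of the 1489 exonic regions 1155 lacked a peak in at least 1 library and could not be tested.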
